A study of Homo sapiens with 8 samples.

Results

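Histone genes, whose proteins package DNA, were followed as 2 classes across the 4 conditions of an RNA-Seq experiment in DU145 cells, a human prostate cancer line. Members were taken by gene name. The replicative class held every row named HIST1H, HIST2H, HIST3H or HIST4H (73 rows) and the variant class held H1F0, H1FX, H2AFJ, H2AFX, H2AFZ, H2AFV, H2AFY, H2AFY2, H3F3A and H3F3B (10 rows), together 83 of the 23391 deposited genes. The rule uses gene names alone, and it was set with earlier results of these data known. The study asked which mRNAs respond to the orphan nuclear receptor Esrrb and to DY131, a synthetic ligand of Esrrb and Esrrg. DU145-pc3.1 cells carried the empty pcDNA3.1-zeo (+) vector and DU145-Esrrb cells carried the Esrrb expression vector. Both were pools of stably transfected, Zeocin-selected cells, and whether the 2 libraries of a group came from separately transfected cells is not clear from the sources used here. Each was given vehicle (called untreated here) or 3 μM DY131 in medium with charcoal-stripped serum after growing to confluence, and the length of treatment is not given in the sources used here. Each of the 4 groups had 2 libraries, described as biological replicates.

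Nucleosomes are built from histones H2A, H2B, H3 and H4, and histone H1 binds the DNA between them. Replicative histone genes lie in clusters, mostly lack introns and are expressed in S phase, and most of their mRNAs end in a stem-loop bound by SLBP in place of a poly(A) tail. Variant histone genes are expressed throughout the cell cycle, most of them contain introns, and their mRNAs are generally polyadenylated. The libraries were made from polyadenylated RNA, so the counts on replicative genes describe the polyadenylated part of their transcripts and not the whole.

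The stem-loop that ends a replicative histone mRNA was looked up in the GENCODE 29 transcripts (GRCh38), because it marks where the tail-less form ends. It was found in at least 1 annotated transcript of the gene for 33 of the 73 replicative rows. Counted by transcript and not by gene, 0.175% of all annotated transcripts held it. The most frequent form, in 17 rows, and the form in the variant gene H2AFX are shown with the arms of the stem in capitals.
replicative stem-loop, most frequent: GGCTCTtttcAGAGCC
H2AFX stem-loop: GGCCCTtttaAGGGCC
H2AFX, the H2A variant that is phosphorylated at DNA breaks, was the only variant gene with this element, and 1044 annotated bases followed it in the transcript. Any H2AFX transcripts that end at the stem-loop without a tail are not covered by its counts either. Among the replicative rows, HIST2H2BE had 1729 bases after its stem-loop and HIST1H2AC had 1128, whereas HIST1H2BD had 39. The annotated transcripts of HIST1H2BK and HIST1H1C hold coding sequence alone, of 381 and 642 bases, so the element could not be looked for there. Many other rows without the element have similarly short annotated transcripts, such as HIST1H3A (411 bases) and HIST1H4A (312 bases). A row without it here is therefore not shown to lack it.

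The 300 bases around the RefSeq start (GRCh38.p14) of the 3 replicative genes with the highest counts are shown, because 2 of them (HIST1H2BK and HIST2H2BE) went opposite to the other (HIST1H1C) in DY131-treated DU145-Esrrb cells. Capitals mark 4 motifs, each on either strand and with overlapping matches joined. They are the octamer (ATTTGCAT), the TATA box (TATAAA), the CCAAT box and an element of H1 gene promoters called the H1 box here (AAACACA). The first window lies at chr6:26056421-26056720, the second at chr6:27146809-27147108 and the third at chr1:149886633-149886932, all on the minus strand.
HIST1H1C: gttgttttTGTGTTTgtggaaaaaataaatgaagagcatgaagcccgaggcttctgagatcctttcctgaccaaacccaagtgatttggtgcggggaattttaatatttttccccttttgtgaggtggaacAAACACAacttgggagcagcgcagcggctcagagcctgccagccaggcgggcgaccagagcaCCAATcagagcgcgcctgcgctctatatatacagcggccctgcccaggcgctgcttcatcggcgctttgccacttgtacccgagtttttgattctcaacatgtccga
HIST1H2BK: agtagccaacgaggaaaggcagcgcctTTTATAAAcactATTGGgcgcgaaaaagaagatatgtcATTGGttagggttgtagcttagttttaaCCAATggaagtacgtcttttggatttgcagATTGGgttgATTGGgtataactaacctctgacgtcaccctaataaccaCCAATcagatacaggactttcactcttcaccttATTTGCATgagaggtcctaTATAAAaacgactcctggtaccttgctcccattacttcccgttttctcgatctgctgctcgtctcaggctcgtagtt
HIST2H2BE: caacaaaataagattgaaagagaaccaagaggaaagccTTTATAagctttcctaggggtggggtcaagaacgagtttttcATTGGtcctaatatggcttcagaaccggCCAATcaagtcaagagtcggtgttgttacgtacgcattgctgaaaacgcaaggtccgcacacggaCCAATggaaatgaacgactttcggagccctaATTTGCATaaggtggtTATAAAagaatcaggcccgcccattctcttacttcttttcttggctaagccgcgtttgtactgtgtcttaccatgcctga
The windows of HIST1H2BK and HIST2H2BE both held the octamer 46 bases before the start, and that of HIST1H1C held none. HIST2H2BF, HIST1H2AG and HIST1H2BJ, which also rose in DY131-treated DU145-Esrrb cells, held the octamer too. HIST1H4H, HIST1H2BN and HIST1H2BD rose there without it. HIST1H2AC (Log2FC 0.03, SE 0.14) and HIST1H2AE (0.04, SE 0.35) held it and did not rise there. HIST1H2AM (0.77, SE 0.45), HIST1H2BC (0.44, SE 0.18) and HIST1H2BG (0.45, SE 0.43) held it too and did not pass an adjusted p of 0.05. HIST1H2AI, HIST1H3H and HIST3H2A neither held it nor passed, and HIST2H2BC had no window. Whether the motif goes with the response was not tested. Of the 65 replicative rows with a RefSeq window, 26 held the octamer, 44 the TATA box, 55 the CCAAT box and 9 the H1 box, against 1.77%, 11.5%, 34.6% and 5.64% of all 35116 windows. The octamer was in 14 of 18 H2B and 11 of 16 H2A windows, and in 1 of the 31 other replicative windows. The H1 box was in all 6 H1 windows. Of the 9 variant windows, 1 held the octamer (H3F3B). A match describes these letters and is not evidence of binding.

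Counts on ESRRB went with the labels. They were 0 to 3 per library in the 4 DU145-pc3.1 libraries and 99 to 143 in the 4 DU145-Esrrb libraries. The libraries held 7858743 to 11551690 counts on genes. The 2 lowest totals belonged to DY131-treated DU145-Esrrb cells, whose 2 columns carry one heading and are called column a and column b here. The epithelial markers KRT8, KRT18, KRT7, KRT19, EPCAM and CDH1 were measured in every library (62.3 cpm or more, cpm being the read count scaled to library size). Of 4 luminal prostate markers, KLK2 and KLK3 were at 0 in every library. Of 8 markers of blood, endothelial, fibroblast and liver cells, 1 (COL1A1) passed the filter of 1 cpm in at least 2 libraries. The summed level of these 8 was 2.87 to 3.5 cpm in DY131-treated DU145-Esrrb cells and 4.56 to 6.54 cpm in the other groups, and its part in any result was not tested.

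All 10 variant genes passed the filter, and 18 of the 73 replicative rows did. Of the other 55 replicative rows, 16 had 0 counts in every library and none exceeded 11 counts in any. A count of 0 allows up to 3 counts, or 0.254 to 0.391 cpm depending on the library. The rows that passed comprised 9 of 20 H2B, 6 of 18 H2A, 1 of 6 H1, 1 of 14 H3 and 1 of 15 H4 rows. Of the rows with at least 100 annotated bases after the stem-loop, 11 were tested and 13 were not. Without the filter, 3 more rows had an adjusted p under 0.05 (edgeR, Benjamini-Hochberg), each between the DY131-treated pools: HIST1H2AK, HIST1H2BL and HIST1H3G, named after their values were seen. Each had at most 1 count in either DY131-treated DU145-pc3.1 library and 3 to 9 in DY131-treated DU145-Esrrb cells.

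Reads were spread unevenly over the replicative class. HIST1H2BK, an H2B gene, took 47.6% of its counts over the 8 libraries, HIST1H1C, which encodes the linker histone H1.2, took 26.1%, and HIST2H2BE, another H2B gene, took 9.5%. These shares are of reads and were not divided by length. The annotated transcript of HIST1H2BK, coding sequence alone, shares 74.1% of its 50-base windows with transcripts of other genes. Any reads beyond that sequence are not covered by this share. How the counting treated shared reads is not stated, so the values of HIST1H2BK are uncertain to that extent. The same holds for HIST1H2AI (62.3%), HIST1H2AM (86.3%) and HIST2H2BC (79.7%). The class holds 3 rows annotated as pseudogenes. HIST2H2BC, a transcribed pseudogene, is 1 of them and is counted among the tested H2B genes here. In the variant class the counts were more even, and H3F3A, H2AFZ and H3F3B held 20.9%, 19.4% and 18.9%. H3F3A shares 34.8% of its windows with copies, and the row of its pseudogene H3F3AP4 held the same counts within 2 in all 8 libraries (equal in 5), so the H3F3A values are uncertain to that extent.

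The summed level of the replicative class differed between the groups far more than that of the variant class. It was 499 and 437 cpm in untreated DU145-pc3.1 cells, 466 and 429 cpm in untreated DU145-Esrrb cells, 294 and 356 cpm in DY131-treated DU145-pc3.1 cells, and 545 and 538 cpm in DY131-treated DU145-Esrrb cells. The 2 DY131-treated groups thus lay below and above all 4 untreated libraries. The variant sum lay between 2062 and 2266 cpm over the 8 libraries, and its untreated and treated ranges overlapped. In 17 rows, HIST1H2BK among them, at least 50% of the windows of the annotated transcript are shared. Without these rows the replicative means were 259, 249, 146 and 217 cpm in the same order. DY131-treated DU145-Esrrb cells were then no longer the highest. With HIST1H1C alone left out, the means were 317, 303, 246 and 468 cpm, and DY131-treated DU145-Esrrb cells were the highest. In bulk RNA a lower level per cell and fewer cells expressing a gene cannot be told apart.

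The first comparison asked what Esrrb changed without DY131. All 8 libraries entered 1 edgeR model (quasi-likelihood), and a gene passed at a Benjamini-Hochberg adjusted p under 0.05. With 2 libraries a group, these p-values rest on 1 spread per gene, shared by the 4 groups. The 2 libraries of a group did not differ equally. Set against counting error (chi-square per degree of freedom), they differed by 7.1 in DY131-treated DU145-pc3.1 cells. The value was 2.6 in untreated DU145-pc3.1, 1.8 in untreated DU145-Esrrb and 1.29 in DY131-treated DU145-Esrrb cells. The shared spread may therefore be too small for DY131-treated DU145-pc3.1 cells. No replicative gene passed in either direction, where 1.68% of all 13856 tested genes passed upward and 2.49% downward. None had an unadjusted p under 0.05, and neither DESeq2 nor the exact test gave any. The median Log2FC of the 18 genes was -0.03, with values from -0.57 to 0.77. HIST1H2BK was at 213 and 183 cpm in the empty-vector pool against 188 and 185 cpm in DU145-Esrrb cells (Log2FC -0.09, SE 0.08). HIST1H1C was at 162 and 141 cpm against 154 and 135 cpm (Log2FC -0.06, SE 0.11). Both pools overlapped for each of these genes.

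Of the variant genes, 2 of 10 fell with Esrrb and none rose at an adjusted p under 0.05 in edgeR (1 rose at an unadjusted p under 0.05, 0 by DESeq2 and 0 by the exact test). H1F0, the linker histone H1.0 of slowly dividing cells, was at 377 and 365 cpm in the empty-vector pool against 312 and 304 cpm in DU145-Esrrb cells. Its Log2FC was -0.27 (SE 0.06, adjusted p = 0.0167, edgeR). H2AFY, which encodes macroH2A1, was at 155 and 153 cpm against 130 and 129 cpm, a Log2FC of -0.25 (SE 0.06, adjusted p = 0.029, edgeR). The libraries of the 2 pools did not overlap for either gene. Neither passed when any 1 of these 4 libraries was left out, with Log2FC values of -0.24 to -0.29 for H1F0 and -0.24 to -0.26 for H2AFY. H2AFY also no longer passed without column a or column b of the treated DU145-Esrrb group, and by DESeq2 (adjusted p = 0.0643).

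The next comparison asked what DY131 changed in cells without the Esrrb vector. The study, with the exact test, reported no gene altered in it. Here 142 of all tested genes were called up and 438 down, at an adjusted p under 0.05 (edgeR) and an absolute Log2FC of at least 1. The reason for this difference was not tested. Of the 18 replicative genes, 8 fell and none rose (0 at an unadjusted p under 0.05 and 0 by DESeq2 or the exact test), where 18.5% of all tested genes fell and 18.9% rose. The median Log2FC was -0.61, against 0.00 over all tested genes, and 16 of 18 values were negative. At a Log2FC of at most -1 as well, 4 were called (3.16% of all tested genes were): HIST1H2AC, HIST1H2AE, HIST1H2AI and HIST1H3H.

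HIST1H2AC, an H2A gene and 1 of the 2 replicative rows with more than 1 exon, was at 22.8 and 24.4 cpm in untreated and 9.34 and 13.7 cpm in DY131-treated DU145-pc3.1 cells. The groups were clearly apart, with a Log2FC of -1.04 (SE 0.15, adjusted p = 8.3e-05, edgeR). HIST1H1C was at 162 and 141 cpm before and 66.3 and 90.5 cpm after treatment, a Log2FC of -0.95 (SE 0.11, adjusted p = 1.2e-05, edgeR). HIST2H2BE was at 44.1 and 39.1 cpm and then at 26.2 and 29 cpm, a Log2FC of -0.59 (SE 0.09, adjusted p = 0.00017, edgeR). In all 3 genes both treated libraries lay below both untreated ones. HIST1H2BD (Log2FC -0.64, SE 0.16) and HIST1H2BC (Log2FC -0.54, SE 0.20), both H2B genes, fell as well. Without DU145-pc3.1 replicate 1 the adjusted p of HIST1H2BD was 0.0522 (edgeR, Log2FC -0.56), and HIST1H2BC no longer passed without any 1 of the libraries other than DU145-pc3.1+DY131 replicate 2 (Log2FC -0.61 to -0.38).

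The remaining genes that fell had few reads. HIST1H2AE, an H2A gene, was at 2.38 and 2.46 cpm untreated and 1.03 and 0.297 cpm treated (Log2FC -1.83, SE 0.44), the last value being 3 counts. HIST1H3H, the one H3 gene tested, was at 4.67 and 2.55 cpm and then at 1.68 and 1.19 cpm (Log2FC -1.31, SE 0.35). HIST1H2AI was at 1.14 and 0.968 cpm and then at 0.187 and 0.495 cpm (Log2FC -1.61, SE 0.56), and no longer passed without either untreated library or DU145-pc3.1+DY131 replicate 1 (Log2FC -1.73 to -1.06). Treated libraries were below untreated ones in each, but leaving out DU145-pc3.1 replicate 1 left 4 genes with an adjusted p under 0.05 in place of 8. The called genes were then 2 in place of 4, as they were without DU145-pc3.1+DY131 replicate 1. Without the former, HIST1H3H had a Log2FC of -0.81 (adjusted p = 0.155, edgeR).

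HIST1H2BK, the most counted gene, was near the threshold. It was at 213 and 183 cpm untreated and 153 and 188 cpm treated, and the groups overlapped (Log2FC -0.22, SE 0.08, adjusted p = 0.057, edgeR). Its value passed as a fall without DU145-pc3.1 replicate 2 (-0.32) and without DU145-pc3.1+DY131 replicate 2 (-0.37). It also passed by the exact test (adjusted p = 0.048), with library totals (0.02), with no filter (0.0055) and where each library had to reach 10 counts (0.049). It did not pass with the correction for exon structure described below (Log2FC -0.16, adjusted p = 0.14, edgeR). Over the alternatives run its Log2FC lay between -0.37 and 0.02, so its sign was not kept in all of them. HIST1H4H, the one H4 gene tested, was at 3.43 and 3.70 cpm and then at 4.76 and 3.07 cpm (Log2FC 0.14, SE 0.28). HIST1H2BJ was the other gene with a positive value (Log2FC 0.34, SE 0.27).

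**Figure D1:**
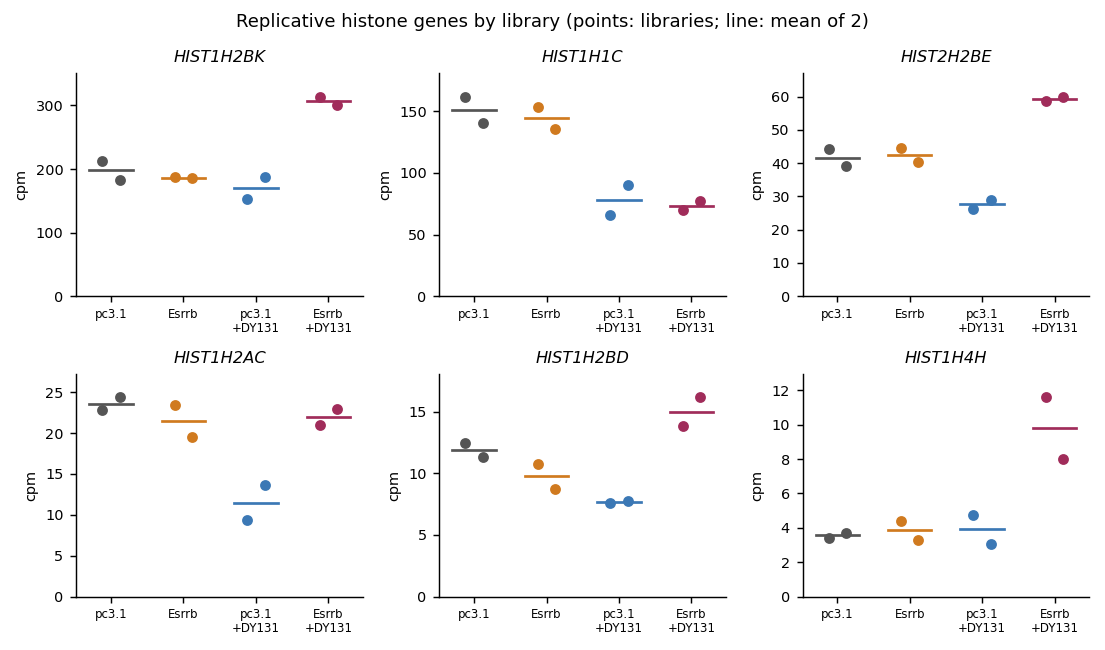
Level in cpm (y axes from 0) of 6 replicative histone genes in the 8 libraries; points are libraries and lines are the means of 2. HIST1H2BK reached 301 to 313 cpm in DY131-treated DU145-Esrrb cells and at most 213 cpm elsewhere, while HIST1H1C was at 66.3 to 90.5 cpm in both treated groups and 135 to 162 cpm in both untreated ones.

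The same ligand was then followed in DU145-Esrrb cells. Of the 18 replicative genes, 9 rose and 1 fell, where 29.2% of all tested genes rose and 29.5% fell. The median Log2FC was 0.50, and 16 of 18 values were positive. Calls with a Log2FC of at least 1 were 3 (2.98% of all tested genes): HIST2H2BF, HIST1H4H and HIST1H2BN. None was called down, where 9.04% of all tested genes were, but HIST1H1C was without DU145-Esrrb replicate 2 or column b. Without column a or without column b of the treated group, 5 genes rose in place of 9, and DESeq2 also gave 5.

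HIST1H2BK was at 188 and 185 cpm in untreated and 313 and 301 cpm in DY131-treated DU145-Esrrb cells, a 1.65-fold difference (Log2FC 0.72, SE 0.08, adjusted p = 3.0e-06, edgeR). HIST2H2BE was at 44.4 and 40.3 cpm and then at 58.6 and 59.9 cpm (Log2FC 0.48, SE 0.09, adjusted p = 0.00021, edgeR). HIST1H4H was at 4.41 and 3.31 cpm and then at 11.6 and 8.02 cpm (Log2FC 1.32, SE 0.24, adjusted p = 0.00023, edgeR). The treated libraries lay above the untreated ones in all 3, and the study listed HIST1H4H among the mRNAs raised.

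HIST1H2BD was at 10.8 and 8.73 cpm and then at 13.8 and 16.2 cpm (Log2FC 0.62, SE 0.15), and no longer passed without column b (Log2FC 0.49, adjusted p = 0.0521, edgeR). HIST2H2BF, at 6 and 13 counts untreated and 18 and 29 counts treated, had a Log2FC of 1.74 (SE 0.43). Without column b its adjusted p was 0.0503 (edgeR), with a Log2FC of 1.47. HIST1H2BN, at 21 and 9 counts untreated and 28 and 21 counts treated, had a Log2FC of 1.16 (SE 0.41). It no longer passed without DU145-Esrrb replicate 2 (Log2FC 0.73) and without column a (Log2FC 0.84). HIST1H2AG rose by 0.76 on the log2 scale and no longer passed without any 1 of the 4 libraries. HIST1H2BJ (0.74, SE 0.24) and HIST2H2BC (0.52, SE 0.18) rose as well. HIST1H2BJ no longer passed without any 1 of the 4 libraries (0.71 to 0.77), and HIST2H2BC without DU145-Esrrb replicate 1 (0.41) or column a (0.34).

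HIST1H1C went the other way, and the study listed it among the mRNAs lowered by DY131 in DU145-Esrrb cells. It was at 154 and 135 cpm untreated and 69.6 and 77.6 cpm treated in DU145-Esrrb cells, a Log2FC of -0.97 (SE 0.12, adjusted p = 3.7e-06, edgeR), close to the value of -0.95 in DU145-pc3.1 cells. Over the alternatives run, its Log2FC lay between -1.27 and -0.69 in DU145-Esrrb cells and between -1.19 and -0.73 in DU145-pc3.1 cells. HIST1H2AC was at 23.5 and 19.5 cpm and then at 21 and 22.9 cpm, with treated values inside the untreated range (Log2FC 0.03, SE 0.14). The Log2FC values of HIST1H2AE (0.04, SE 0.35) and HIST1H3H (0.09, SE 0.32) were as close to 0, with wide errors.

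**Figure D2:**
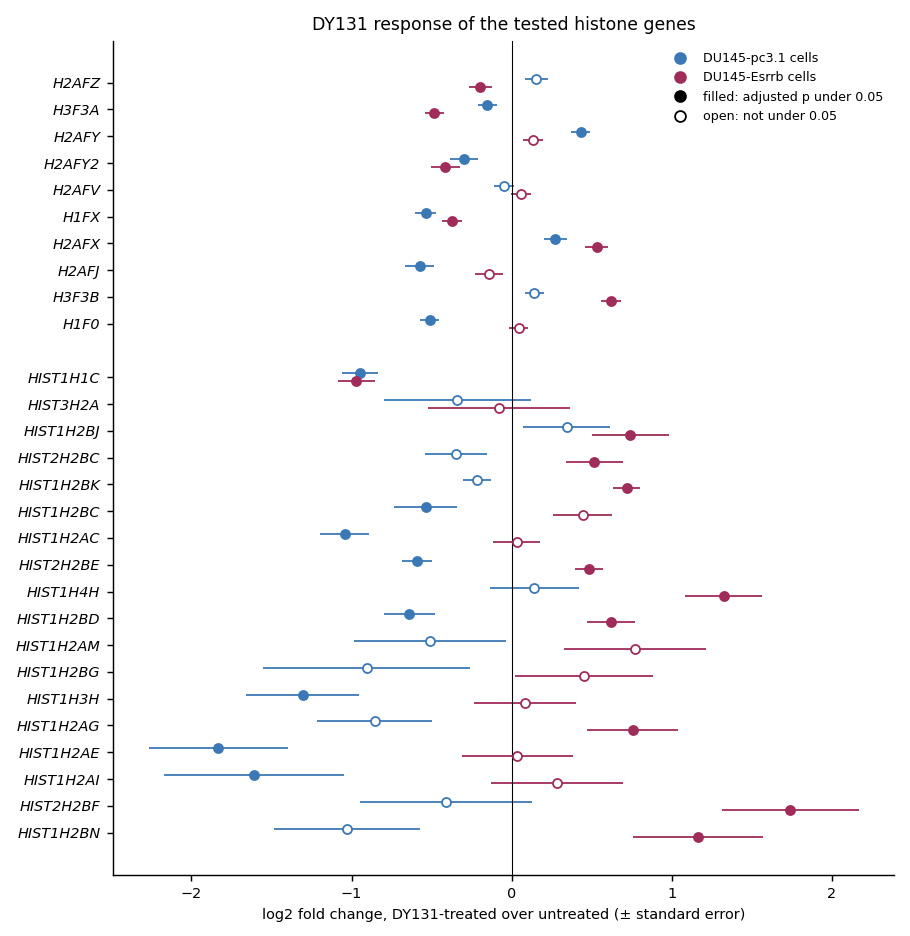
Log2 fold change of DY131-treated over untreated cells (x axis) with its standard error for the 10 variant (top) and 18 replicative (bottom) genes tested, in DU145-pc3.1 and DU145-Esrrb cells; filled points have an adjusted p under 0.05. HIST1H1C had nearly equal values in both pools (-0.95 and -0.97), while the other 17 replicative genes had the higher value in DU145-Esrrb cells.

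Between the 2 DY131-treated pools, 15 of the 18 replicative genes were higher in DU145-Esrrb cells and none was lower (0 at an unadjusted p under 0.05 and 0 by DESeq2 or the exact test). The background was 25.1% higher and 25.3% lower among all tested genes. The median Log2FC was 1.04. All 9 H2B rows were higher, the pseudogene HIST2H2BC among them, with a median of 0.97. So were 4 of 6 H2A genes, with a median of 1.34. At a Log2FC of at least 1, 9 were called (2.15% of all tested genes), and none at -1 or below (6.06%). HIST2H2BE, at 26.2 and 29 cpm against 58.6 and 59.9 cpm, was 2.15-fold higher (Log2FC 1.10, SE 0.09, adjusted p = 2.0e-07, edgeR). HIST1H2BK was 1.80-fold higher (Log2FC 0.85, SE 0.08) and HIST1H2AC 1.92-fold higher (Log2FC 0.94, SE 0.16). In HIST1H2AG, HIST1H2AE, HIST1H2AI and HIST1H2BG, each with at most 33 counts in any library, the Log2FC values were 1.72, 1.87, 2.07 and 2.12. HIST1H2BG no longer passed without column b (1.76), and HIST1H2BJ (0.85, SE 0.25) without column a (0.83) or column b, while HIST1H2BN (1.62) no longer passed without column a (1.29). HIST1H3H (1.18, SE 0.38) no longer passed without column a (1.01) or DU145-pc3.1+DY131 replicate 2 (0.95). The 3 genes that did not pass were HIST1H1C (-0.09, SE 0.12), HIST1H2AM (0.97, SE 0.47) and HIST3H2A (0.40, SE 0.48). Without DU145-pc3.1+DY131 replicate 1, in which HIST1H1C was at 66.3 cpm, HIST1H1C was lower in DU145-Esrrb cells (Log2FC -0.31, adjusted p = 0.0054, edgeR). This comparison shares its libraries with both DY131 comparisons, so its values are not independent of them.

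The difference between the 2 DY131 responses was itself tested, as an interaction of DY131 and Esrrb. It was positive, meaning a higher response in DU145-Esrrb cells, in 13 of 18 replicative genes at an adjusted p under 0.05 (edgeR), and negative in none (0 at an unadjusted p under 0.05 and 0 by DESeq2). Among all tested genes 16.1% were positive and 17.6% negative. With a difference of at least 1 in size as well, 10 replicative genes were positive (1.54% of all tested genes) and none negative (4.74%). For HIST1H2BK the difference was 0.94 (SE 0.12, adjusted p = 3.5e-05), for HIST2H2BE 1.07 (SE 0.13, adjusted p = 2.0e-05), for HIST1H2BD 1.26 (SE 0.22, adjusted p = 0.00048) and for HIST1H2AC 1.07 (SE 0.21, adjusted p = 0.0013), all log2 values from edgeR. For HIST1H1C it was -0.02 (SE 0.16, adjusted p = 0.93). The count depended on single libraries and on the tool. It was 7 without DU145-pc3.1 replicate 1 or without column a, 8 without DU145-Esrrb replicate 2 or without column b, and 4 by DESeq2.

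Exon structure moved with these results. Of the 73 replicative rows 71 have a single exon, and 264 protein-coding genes of 1 exon outside the rule were tested too. Among those, 132 were higher and 24 lower in DU145-Esrrb than in DU145-pc3.1 cells under DY131, with a median Log2FC of 0.37, whereas 12517 coding genes with several exons had a median of -0.01. With DY131 in DU145-Esrrb cells the medians were 0.22 and -0.02, and in DU145-pc3.1 cells -0.11 and 0.00. The replicative medians of 1.04, 0.50 and -0.61 were further from 0 in the same directions. Expressed as a share, 83.3% of the tested replicative genes and 50% of the other single-exon coding genes were higher in the first of these comparisons. With DY131 in DU145-Esrrb cells the shares that rose were 50% and 39%. In DU145-pc3.1 cells the shares that fell were 44.4% and 23.1%.

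A second fit was therefore set beside the main one. It takes out, in each library, the trend of the genes' deviations from their mean over junction share, the fraction of a transcript's 50-base windows that cross from one exon into the next. It brought the median of the 264 single-exon genes to -0.02 between the DY131-treated pools, to -0.08 with DY131 in DU145-Esrrb cells and to -0.05 in DU145-pc3.1 cells. The replicative medians became 0.68, 0.20 and -0.56. Of the 18 replicative genes, 12 were then higher and 1 lower between the treated pools (19% and 19.4% of all tested genes), 3 rose and 1 fell with DY131 in DU145-Esrrb cells (27% and 26.5%), and 7 fell in DU145-pc3.1 cells (18.3%). The genes that still rose in DU145-Esrrb cells were HIST1H2BK (0.42), HIST1H4H (1.02) and HIST2H2BF (1.44). HIST2H2BE had 0.18 (adjusted p = 0.088, edgeR) and HIST1H2BD 0.32 (adjusted p = 0.087, edgeR). HIST1H1C had -1.27 there and became the gene that was lower between the treated pools (-0.48, adjusted p = 0.0053, edgeR). The interaction held for 5 genes (HIST1H2BK 0.58, HIST2H2BE 0.72, HIST1H2AC 0.79, HIST1H2BD 0.90 and HIST1H2BN 1.84) in place of 13, where 10.4% of all tested genes were positive and 11.8% negative.

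**Figure D3:**
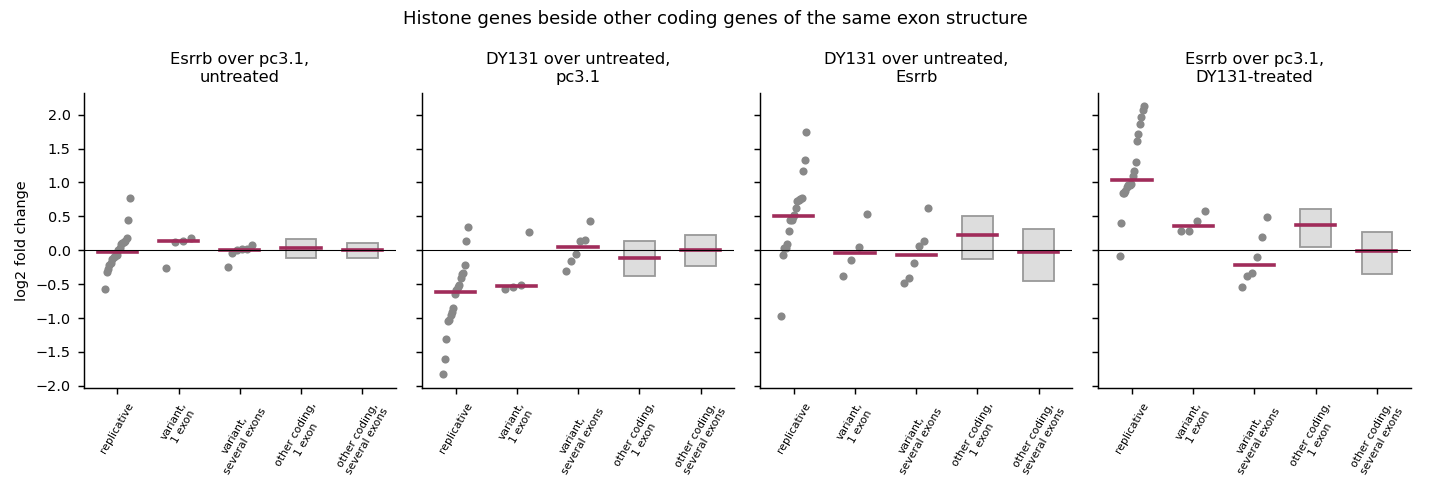
Log2 fold change (y axis) in 4 comparisons for replicative genes, variant genes of 1 exon and of several exons (points are genes), and for other coding genes of 1 and of several exons (boxes span the middle 50% of genes); thick lines are medians. Between DY131-treated pools the median was 1.04 for replicative genes and 0.37 for other single-exon coding genes.

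No variant gene was called at an absolute Log2FC of at least 1 in any of the 5 comparisons by edgeR, DESeq2 or, where it was run, the exact test. Among all tested genes 0.18% to 9.04% were called in a direction by edgeR, so 0 of 10 is near the background. At an adjusted p under 0.05 alone, 2 rose and 5 fell with DY131 in DU145-pc3.1 cells, and 2 rose and 4 fell in DU145-Esrrb cells. Between the DY131-treated pools 6 were higher and 3 lower in DU145-Esrrb cells. The shares of all tested genes were 18.9% up and 18.5% down, 29.2% and 29.5%, and 25.1% and 25.3% in the same order. The 4 variant genes of 1 exon (H1F0, H1FX, H2AFJ and H2AFX) were all higher in this comparison, with a median Log2FC of 0.36, and the 6 with several exons had a median of -0.21. With the junction correction none of the 4 passed there (H1F0 -0.10, H1FX -0.11, H2AFJ 0.18 and H2AFX 0.05).

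Both linker variants fell with DY131 in DU145-pc3.1 cells. H1FX, which encodes H1.10, was at 112 and 119 cpm in untreated and 79.9 and 79.3 cpm in treated DU145-pc3.1 cells (Log2FC -0.54, SE 0.06, adjusted p = 1.2e-05, edgeR). In DU145-Esrrb cells it was at 125 and 126 cpm and then at 99.5 and 94.5 cpm (Log2FC -0.37, SE 0.06, adjusted p = 0.00012, edgeR), and a correction for length and GC content turned this value to 0.04. The 2 responses differed by 0.16 (SE 0.09, adjusted p = 0.17, edgeR). H1F0 went from 377 and 365 cpm to 257 and 264 cpm in DU145-pc3.1 cells (Log2FC -0.51, SE 0.06, adjusted p = 1.1e-05, edgeR). In DU145-Esrrb cells it went from 312 and 304 cpm to 333 and 302 cpm, overlapping values (Log2FC 0.04, SE 0.06), and the junction correction turned this to -0.26 (adjusted p = 0.0018, edgeR). The interaction for H1F0 was 0.56 (SE 0.08, adjusted p = 0.00016, edgeR), and with the junction correction it was 0.20 (adjusted p = 0.10).

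Among the H2A variants, H2AFX was at 62.7 and 68.2 cpm in untreated and 77.3 and 81.0 cpm in treated DU145-pc3.1 cells (Log2FC 0.27, SE 0.07). In DU145-Esrrb cells it rose from 71.2 and 76.8 cpm to 110 and 104 cpm (Log2FC 0.53, SE 0.07, adjusted p = 1.3e-05, edgeR), and the smaller of these rises no longer passed without DU145-pc3.1 replicate 1 (Log2FC 0.22). With the junction correction the value in DU145-Esrrb cells was 0.23 (adjusted p = 0.012, edgeR). H2AFJ went from 40.9 and 39.7 cpm to 28.6 and 25.5 cpm in DU145-pc3.1 cells (Log2FC -0.57, SE 0.09, adjusted p = 0.00015, edgeR). In DU145-Esrrb cells it was at 45.6 and 43.1 cpm and then at 42.1 and 38.6 cpm (Log2FC -0.14, SE 0.09, adjusted p = 0.18, edgeR). The last value was -0.44 with the junction correction and 0.28 with that for length and GC content, both with an adjusted p under 0.05, so its direction depended on the correction.

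H2A.Z marks promoters and is encoded by H2AFZ and H2AFV. H2AFZ was at 403 and 453 cpm untreated and 443 and 509 cpm treated in DU145-pc3.1 cells, overlapping groups (Log2FC 0.15, SE 0.07), and passed as a rise without DU145-pc3.1+DY131 replicate 1 (0.26). In DU145-Esrrb cells it was at 413 and 422 cpm and then at 372 and 357 cpm (Log2FC -0.19, SE 0.07, adjusted p = 0.03, edgeR). This fall no longer passed without any 1 of these 4 libraries, and with the junction correction it was -0.08. H2AFV lay between 127 and 150 cpm in all 8 libraries. It was higher in DU145-Esrrb than in DU145-pc3.1 cells under DY131 (Log2FC 0.19, SE 0.06, adjusted p = 0.02, edgeR), which no longer passed without DU145-pc3.1+DY131 replicate 1 (0.14), column a (0.20) or column b (0.17). With the junction correction H2AFV had a larger value between the treated pools (Log2FC 0.48, adjusted p = 2.6e-05, edgeR). It then also rose with DY131 in DU145-Esrrb cells (0.33, adjusted p = 0.00042, edgeR). MacroH2A, found on silent chromatin, is encoded by H2AFY and H2AFY2. H2AFY rose from 155 and 153 cpm to 199 and 216 cpm with DY131 in DU145-pc3.1 cells (Log2FC 0.43, SE 0.06, adjusted p = 4.7e-05, edgeR). In DU145-Esrrb cells it was at 130 and 129 cpm and then at 146 and 138 cpm (Log2FC 0.13, SE 0.06, adjusted p = 0.075, edgeR), and passed as a rise without either DY131-treated DU145-pc3.1 library (0.13 each). H2AFY2 was lower with DY131 in both pools, with a Log2FC of -0.30 (SE 0.09) in DU145-pc3.1 and -0.41 (SE 0.09) in DU145-Esrrb cells. The former no longer passed without DU145-pc3.1 replicate 2 (-0.27) and without DU145-pc3.1+DY131 replicate 1 (-0.18).

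**Figure D4:**
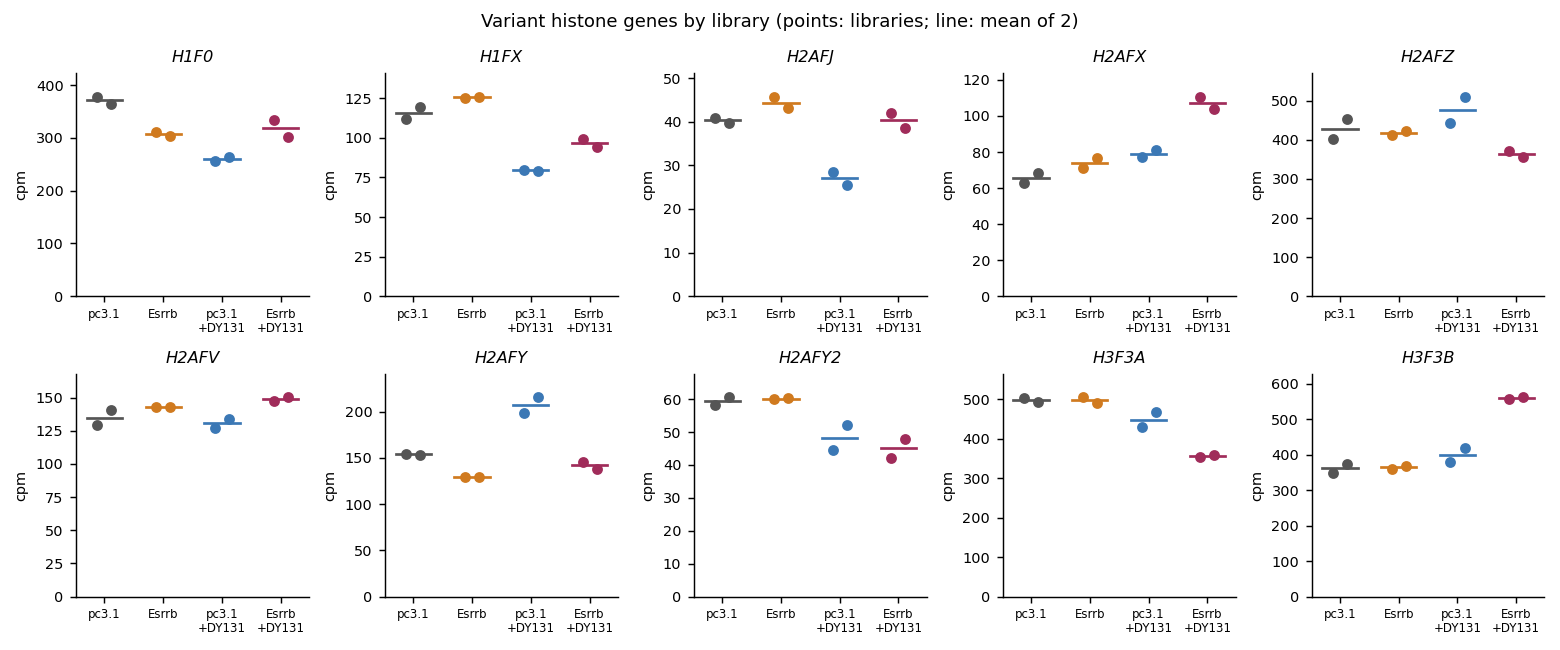
Level in cpm (y axes from 0) of the 10 variant histone genes in the 8 libraries; points are libraries and lines are the means of 2. In DY131-treated DU145-Esrrb cells H3F3A was at 352 and 359 cpm, its lowest values, and H3F3B at 558 and 561 cpm, its highest.

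H3F3A and H3F3B encode the same protein, the replacement histone H3.3, from different mRNAs. With DY131 in DU145-Esrrb cells H3F3A went from 504 and 491 cpm to 352 and 359 cpm (Log2FC -0.48, SE 0.06, adjusted p = 4.3e-06, edgeR). H3F3B went from 361 and 368 cpm to 558 and 561 cpm (Log2FC 0.62, SE 0.06, adjusted p = 6.8e-07, edgeR). In DU145-pc3.1 cells the values were -0.15 (SE 0.06) and 0.14 (SE 0.06), and H3F3A, at an adjusted p of 0.05 (edgeR), no longer passed in 7 of the 8 fits that left out 1 library (-0.17 to -0.08). H3F3B passed as a rise there without DU145-pc3.1+DY131 replicate 1 (0.23). H3F3B made up 41.0% to 43.2% of the counts of the pair in the 4 untreated libraries, 46.9% and 47.3% in DY131-treated DU145-pc3.1 cells and 61.3% and 61.0% in DY131-treated DU145-Esrrb cells. The sum of the pair lay between 806 and 921 cpm. The interactions were -0.33 for H3F3A (SE 0.08, adjusted p = 0.006, edgeR) and 0.48 for H3F3B (SE 0.09, adjusted p = 0.00075, edgeR). With the junction correction they were -0.37 and 0.25, both with an adjusted p under 0.05.

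Of 10 further variant histone rows, CENPA and H3F3C passed the filter and 4 were at 0 in every library. CENPA, the centromeric H3, lay between 39.2 and 50.02 cpm. H3F3C, which shares sequence with H3F3B, fell with DY131 in DU145-Esrrb cells (Log2FC -1.65, SE 0.34, adjusted p = 0.00064, edgeR).

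Genes that make and mature replicative histone mRNA were taken as a list chosen with earlier results known, of which 17 were tested. With DY131 7 rose and 1 fell in DU145-pc3.1 cells, and 12 rose and 2 fell in DU145-Esrrb cells (median Log2FC 0.12 and 0.30). As shares these were 41.2% and 5.88%, then 70.6% and 11.8%, against 18.9% and 18.5%, then 29.2% and 29.5%, of all tested genes. SLBP, the stem-loop binding protein, lay between 163 and 182 cpm in all 8 libraries and passed in no comparison. NPAT, the coactivator of histone gene transcription, had a Log2FC of 0.24 (SE 0.09, adjusted p = 0.046) in DU145-pc3.1 and 0.32 (SE 0.09, adjusted p = 0.0064) in DU145-Esrrb cells (edgeR). CASP8AP2, which encodes FLASH, had 0.32 (SE 0.07) and 0.47 (SE 0.07). LSM11, of the U7 particle that cuts histone pre-mRNA, rose in both pools (0.72 and 0.82), and CPSF3, the endonuclease of that cut, fell in DU145-Esrrb cells (-0.70, SE 0.09).

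S phase genes were set beside the replicative class from a list chosen in the same way, with 23 tested. With DY131 in DU145-pc3.1 cells 14 rose and none fell, and in DU145-Esrrb cells 10 rose and 6 fell. Between the DY131-treated pools 10 were lower and none higher in DU145-Esrrb cells. These counts of none came from edgeR, and were 0 at an unadjusted p under 0.05 and 0 by DESeq2 and the exact test. The medians were 0.27, 0.14 and -0.18. The share that rose in DU145-pc3.1 cells was 60.9% (18.9% of all tested genes), that in DU145-Esrrb cells 43.5% (29.2%), and the 26.1% that fell there were near the background of 29.5%. Between the treated pools 43.5% were lower (25.3%). CCNE2, cyclin E2, rose in both pools (0.84 and 0.76), and POLE2, a subunit of DNA polymerase epsilon, was lower in DY131-treated DU145-Esrrb cells than in either comparison group (-1.97 and -2.07, SE 0.12 each). Of 19 histone chaperone genes tested, 10 rose and 1 fell with DY131 in DU145-pc3.1 cells, and 5 rose and 4 fell in DU145-Esrrb cells. The former were 52.6% and 5.26% (18.9% and 18.5% of all tested genes), and the latter, 26.3% and 21.1%, were not above the background (29.2% and 29.5%). Between the treated pools 3 were higher and 6 lower in DU145-Esrrb cells (25.1% and 25.3% of all tested genes). NASP, which holds H1 and H3-H4 before assembly, and NAP1L1, a carrier of H2A-H2B, were lower in DU145-Esrrb than in DU145-pc3.1 cells under DY131, each with a Log2FC of -0.57 (SE 0.06).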

How the data were processed

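RNA-Seq libraries of 50-base reads from 8 DU145 cultures were used. The authors used the FASTX-Toolkit for trimming and TopHat2 for alignment (hg18), and deposited whole-number read counts per gene from their program MULTICOM-MAP, without normalization. Strand handling and the treatment of reads mapping to several genes are not given in the sources used here. Libraries held 7858743 to 11551690 counts, and 3 counts equal 0.254 to 0.391 cpm, a floor that covers counting error only.

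The 13856 genes that reached 1 cpm in 2 or more libraries were scaled by TMM. They were fitted by quasi-likelihood in edgeR, with all 4 groups in 1 model, and p-values were adjusted by Benjamini-Hochberg over these genes. The exact test, the choice of the study, is among the alternatives. Groups came from the sample labels. Passed means an adjusted p under 0.05, and called an absolute Log2FC of at least 1 as well. Printed cpm were scaled by TMM. Same-numbered libraries did not deviate together (correlations 0.0917, 0.0229 and -0.0685 over the tested genes).

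Members, gene lists and tests were chosen with earlier results of these data known. Named by rule were members called in any comparison, the 5 most counted of each class and every variant gene (23 in all). The other 5 tested replicative genes are named so that each is accounted for. Structure came from GENCODE 29 on GRCh38 (22018 rows matched by RefSeq identifier, 721 by symbol, 652 not matched), and promoter windows from RefSeq on GRCh38.p14. These positions are not on hg18. Protein sequences were not used here, and some marker genes are not reported here. Alternatives were DESeq2 and its size factors, library totals, other filters, the exact test, only the 4 libraries compared, each library left out, the replicate number as a block, and corrections for junction share and for length with GC content. The edgeR fit was also run on simulated data for 1 comparison, DY131 in DU145-Esrrb cells. It found 90 of 100 log2 changes of 1 and 100 of 100 of 2. Among 13639 genes, 13 unchanged ones passed. Spread was set equal in all groups and no change was placed on the least counted genes, so members with few counts are not covered.

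Tools were R 4.3.3, edgeR 4.0.16, limma 3.58.1, DESeq2 1.42.0, Python 3.11.15, numpy 2.4.6, pandas 2.3.3 and matplotlib 3.10.9.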

Additional observations from a re-analysis of the deposited data

Results flagged for a closer look

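The DY131 response differed between DU145-Esrrb and DU145-pc3.1 cells, by the interaction term of edgeR's quasi-likelihood F test with a Benjamini-Hochberg adjusted p under 0.05, in 19 histone genes. Differences are given on the log2 scale, positive where the response was higher in DU145-Esrrb cells. Of 18 replicative genes tested, 13 were positive and 0 negative. Of 10 variant genes tested, 3 were positive and 3 negative (30% each). The shares of all tested genes were 16.1% positive and 17.6% negative. Among H2B genes the difference was 0.94 for HIST1H2BK, 1.07 for HIST2H2BE, 1.26 for HIST1H2BD and 0.98 for HIST1H2BC. It was 2.19 for HIST1H2BN, 2.15 for HIST2H2BF and 0.87 for the H2B pseudogene HIST2H2BC. Among H2A genes it was 1.07 for HIST1H2AC, 1.87 for HIST1H2AE, 1.61 for HIST1H2AG and 1.89 for HIST1H2AI. It was 1.39 for the H3 gene HIST1H3H and 1.18 for the H4 gene HIST1H4H. Among variants it was 0.56 for H1F0, 0.43 for H2AFJ and 0.48 for H3F3B, and negative at -0.30 for H2AFY, -0.35 for H2AFZ and -0.33 for H3F3A. HIST1H2AI, with at most 14 counts in any library, no longer passed in 7 of the 8 fits without 1 library. HIST1H2BC, HIST2H2BC, HIST1H2BN, HIST2H2BF, HIST1H2AE, HIST1H2AG, HIST1H3H, HIST1H4H, H2AFJ, H2AFY and H2AFZ also no longer passed in at least 1 such fit. With the junction correction 5 of the 13 replicative genes passed, while H1F0 (0.20), H2AFJ (0.08), H2AFY (-0.18) and H2AFZ (-0.24) no longer did. H2AFV, at 0.11 in the main fit (adjusted p = 0.38, edgeR), passed with this correction (0.39, adjusted p = 0.0054, edgeR). No explanation was tested.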

How the results depend on the processing

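Counts of genes called with an absolute Log2FC of at least 1 changed as follows. With no fold threshold, 2 variant genes fell with Esrrb untreated. With DY131 in DU145-pc3.1 cells 8 replicative genes fell, and 2 variant genes rose and 5 fell. With DY131 in DU145-Esrrb cells 9 replicative genes rose and 1 fell, and 2 variant genes rose and 4 fell. Between treated pools 15 replicative genes were higher, and 6 variant genes higher and 3 lower. In the interaction 3 variant genes were positive and 3 negative. With at least 10 counts in every library, 2 replicative genes were called down in DU145-pc3.1 cells, 1 up and 1 down in DU145-Esrrb cells, 3 up between treated pools and 5 in the interaction, with fewer genes tested. The length and GC correction gave 6 replicative genes called up in DU145-Esrrb cells and 15 between treated pools, and the cause was not tested. HIST1H1C was called down in DU145-Esrrb cells with library totals alone (1 gene) and with the junction correction (1 gene). The interaction called 10 replicative genes, 3 by DESeq2 and 1 with the junction correction.

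Leaving out 1 library gave 2 to 5 replicative genes called down in DU145-pc3.1 cells, 0 to 1 called down in DU145-Esrrb cells and 3 to 9 called up in the interaction. Of single values, the junction correction turned H1F0 to -0.256 with DY131 in DU145-Esrrb cells and H1F0 and H1FX to -0.103 and -0.106 between treated pools. The length and GC correction turned H1FX to 0.0397 and H2AFJ to 0.278 with DY131 in DU145-Esrrb cells. Summed replicative levels without near-identical rows were 259, 249, 146 and 217 cpm, and with library totals 529 cpm in DY131-treated DU145-Esrrb cells. The cause of each of these was not tested.

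The replicate block, on the 6 numbered libraries, gave 6 replicative genes that fell with DY131 in DU145-pc3.1 cells, against 7 in these libraries without it. Of the other values of single genes over all settings, 1802 kept their side of the threshold, 27 passed it newly and 129 no longer passed. The 55 untested replicative rows and the tested genes under about 2 cpm had few counts, and the part of depth in this was not tested.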
